A study of Mus musculus with 24 samples.

Results

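Liver-resident invariant natural killer T cells (LiNKT cells) were compared between untreated mice of the diabetes-prone NOD strain and NOD mice given nanoparticles coated with the antigen-presenting molecule CD1d loaded with the glycolipid α-galactosylceramide (αGalCer/CD1d-NPs). The genomic regions described here were those of the deposited table of differentially methylated regions (DMRs) that were partly methylated in LiNKT cells of untreated mice, with a mean of at least 50% and below 80%, and lower in LiNKT cells of treated mice. They numbered 579 of 2873 DMRs. Because the regions were selected on these 2 methylation means, their fall in methylation is a description and was not tested. Of the other DMRs, 1177 fell from 80% or more, 227 fell from below 50% and 890 gained methylation.

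For whole genome bisulfite sequencing, LiNKT cells came from 7 untreated female mice aged 17 weeks and from 4 treated mice aged 16 weeks, whose sex the study's methods did not give separately. Treated mice had received 20 µg of αGalCer/CD1d-NPs at 2 doses a week for 5 weeks. SmartSeq2, a plate-based sequencing of the RNA of single cells, used cells of 3 untreated and 3 treated male mice, and the single-cell multiome, of which the chromatin fragments were used, used 5 untreated and 4 treated male mice, all aged 13 to 15 weeks. In each case live liver lymphocytes with an intermediate level of TCRβ that bound the αGalCer/CD1d tetramer were sorted. Each kind of data used here has 1 sample per group, so that no difference between groups could be set against the spread between mice, and age and treatment cannot be told apart in the methylome. A partial loss in every cell and a full loss in some cells likewise cannot be told apart in these pooled reads.

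Methyl groups on the cytosine of a CpG dinucleotide are placed and maintained by DNA methyltransferases and are lost either passively, through replication without maintenance, or actively, through oxidation by TET enzymes. Most CpGs of a mammalian genome are highly methylated, while active promoters and enhancers are not, and intermediate levels arise where cells of a population, or the 2 alleles of a cell, differ. In T cells, regulatory elements of cytokine and transcription factor genes lose methylation as effector and regulatory programs are acquired.

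The sequences of 7 of these regions are shown because they lie at genes that the results below turn on: the cytokine gene Il10, the G protein regulator gene Rgs16, the genes of 2 microRNAs induced in activated lymphocytes, the non-coding gene Gm49180 with one of the deepest falls, the cell cycle kinase gene Cdk6, tied with another gene for the most such regions, and Cst7, the gene of cystatin F. They were chosen after their values were seen. Each is given 5′ to 3′ on the plus strand of GRCm38 with its CpGs in capitals, for the stretch of up to 300 bases outside UTRs that held most measured CpGs. The stretches are chr1:131021621-131021920 (Il10), chr1:153740869-153741168 (Rgs16), chr11:86582698-86582997 (Mir21a), chr16:84703935-84704192 (Mir155hg), chr14:45101980-45102279 (Gm49180), chr5:3494139-3494438 (Cdk6) and chr2:150571552-150571851 (Cst7).
Il10: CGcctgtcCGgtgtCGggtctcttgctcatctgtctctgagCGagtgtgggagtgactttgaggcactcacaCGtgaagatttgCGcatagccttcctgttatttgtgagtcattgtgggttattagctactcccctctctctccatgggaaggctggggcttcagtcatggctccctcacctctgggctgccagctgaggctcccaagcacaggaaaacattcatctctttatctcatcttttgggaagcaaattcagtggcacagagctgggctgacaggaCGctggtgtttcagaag
Rgs16: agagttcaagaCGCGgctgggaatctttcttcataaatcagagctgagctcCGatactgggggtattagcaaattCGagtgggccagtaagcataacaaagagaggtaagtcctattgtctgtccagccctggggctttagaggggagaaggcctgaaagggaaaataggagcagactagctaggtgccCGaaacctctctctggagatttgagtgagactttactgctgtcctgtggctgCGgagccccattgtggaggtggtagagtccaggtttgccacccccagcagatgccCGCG
Mir21a: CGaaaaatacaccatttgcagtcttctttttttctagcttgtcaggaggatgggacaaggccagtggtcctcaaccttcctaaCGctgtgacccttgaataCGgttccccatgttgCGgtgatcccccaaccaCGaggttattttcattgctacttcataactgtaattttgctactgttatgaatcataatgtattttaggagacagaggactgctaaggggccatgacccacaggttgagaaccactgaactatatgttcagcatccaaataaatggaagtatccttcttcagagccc
Mir155hg: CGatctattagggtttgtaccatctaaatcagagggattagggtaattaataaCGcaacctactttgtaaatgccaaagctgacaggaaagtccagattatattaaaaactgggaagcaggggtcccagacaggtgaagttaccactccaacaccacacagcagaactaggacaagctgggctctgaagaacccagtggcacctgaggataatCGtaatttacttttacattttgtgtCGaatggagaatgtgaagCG
Gm49180: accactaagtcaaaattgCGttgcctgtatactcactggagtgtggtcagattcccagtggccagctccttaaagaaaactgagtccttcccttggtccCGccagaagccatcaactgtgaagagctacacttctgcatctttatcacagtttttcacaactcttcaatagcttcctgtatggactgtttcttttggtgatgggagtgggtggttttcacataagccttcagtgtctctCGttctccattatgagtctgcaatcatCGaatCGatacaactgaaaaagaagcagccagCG
Cdk6: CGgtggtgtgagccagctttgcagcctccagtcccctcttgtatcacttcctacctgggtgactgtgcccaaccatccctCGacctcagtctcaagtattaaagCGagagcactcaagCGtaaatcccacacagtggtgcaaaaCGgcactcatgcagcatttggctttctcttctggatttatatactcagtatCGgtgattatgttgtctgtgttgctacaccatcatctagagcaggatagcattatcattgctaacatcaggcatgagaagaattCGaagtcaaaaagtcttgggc
Cst7: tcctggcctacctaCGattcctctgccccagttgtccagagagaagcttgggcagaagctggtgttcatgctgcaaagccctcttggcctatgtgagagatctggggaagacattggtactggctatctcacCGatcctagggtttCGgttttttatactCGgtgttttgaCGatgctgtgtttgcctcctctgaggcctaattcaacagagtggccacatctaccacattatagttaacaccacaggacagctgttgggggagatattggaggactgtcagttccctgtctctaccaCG

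In the Il10 stretch, the CpGs at bases 1, 9, 15, 42, 73, 85 and 284 were methylated at 73.5%, 64%, 36.5%, 65.5%, 21.5%, 66.5% and 91% in LiNKT cells of untreated mice, averaging the 2 strands. The same CpGs were at 11.5%, 13%, 6%, 12.5%, 2%, 14.5% and 36.5% in LiNKT cells of treated mice. All 7 were lower, and the CpGs that stood lowest and highest in untreated cells kept those places. In the Rgs16 stretch, 8 CpGs lay between 19% and 90% in untreated cells and between 1.5% and 25.5% in treated cells. In the Mir21a stretch, 5 CpGs went from between 28.5% and 85.5% to between 7% and 17.5%. The values of untreated and treated cells did not overlap in the Mir21a stretch. In the Rgs16 stretch they overlapped through 1 CpG, at base 76, that was at 19% and 12%. Such separation is partly built in, because the regions had to fall and these stretches were picked with their levels known. How often it occurs across all regions was not computed.

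Across the 579 regions, methylation fell to well below what it had been in untreated cells but seldom to zero. The mean over the CpG cytosines of a region, each strand counted, had a median of 71.5% in untreated cells and 29.2% in treated cells. The fall had a median of 40.3 percentage points, with a middle range from 33.6 to 46.6 points, and the level that remained in treated cells was a median of 41.2% of the untreated one. The fall was over 20 points in 554 regions and over 30 points in 480. The regions had a median length of 434 bp, from 200 to 3304 bp, and a median of 17 CpG cytosines, from 10 to 110.

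**Figure D1:**
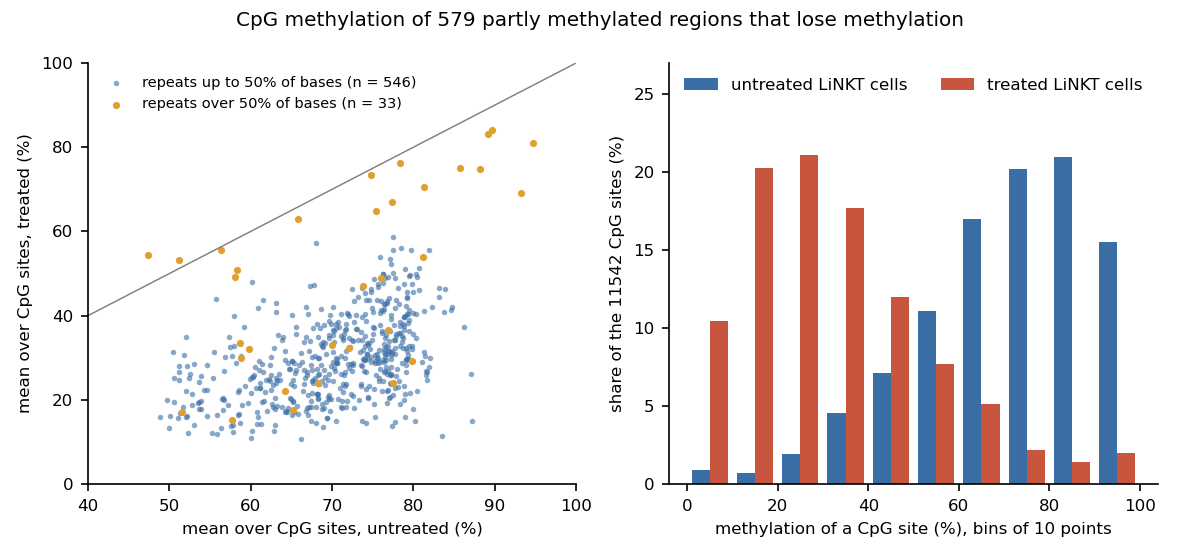
Left, mean methylation over CpG cytosines in untreated (x axis, %) and treated (y axis, %) LiNKT cells for each of 579 regions, with the line of equal values; right, share of the 11542 CpG cytosines (y axis, %) by methylation in bins of 10 points (x axis). Nearly all regions lie below the line, the few on or next to it are mostly repeats, and the cytosines move from a peak at 80 to 90% in untreated cells to one at 20 to 30% in treated cells.

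The intermediate mean of untreated cells was carried by most CpGs of a region and not by a mixture of fully methylated and unmethylated ones. A median of 66.7% of a region's CpG cytosines stood between 20% and 80% in untreated cells. The median was 65.2% in the regions that fell from below 50% and 11.8% in those that fell from 80% or more, where the rule on the mean leaves little room for such cytosines. Over all 11542 cytosines of the 579 regions, 63.8% stood between 20% and 80%, 34.5% above 80% and 1.65% below 20%. In treated cells 65.9% stood between 20% and 80%, 3.33% above 80% and 30.8% below 20%. The cytosines of 1 region spread by a median SD of 15.1 points in untreated cells and 13.5 points in treated cells.

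Nearly every CpG cytosine of these regions moved in the direction that the rule asked of the region mean. Of 11542 cytosines, 11099 (96.2%) were lower in treated cells and 292 were higher, and in 490 of the 579 regions no cytosine failed to fall. Cytosines that stood at 40 to 60% in untreated cells kept 38.3% of their methylation and those at 60 to 80% kept 41.7%, while those at 80 to 100% kept 51.8% and those at 20 to 40% kept 41.6%. The 190 cytosines below 20% in untreated cells went the other way on average, from 8.13% to 15.5%, and 105 of them were lower. Some of the 190 lay in the repeat in Snx6 described below, where single cytosines went from 0% to 100% and from 0% to 67%. The average without repeats was not computed. When each region was cut into 5 equal parts, the middle one was somewhat less methylated than the ends. The middle part went from 68.2% to 28.3%, the first from 71.8% to 34.6% and the last from 72.2% to 34.7%. The SDs between regions were 15.6 to 18.4 points for these 3. The middle part had cytosines in 460 regions and the first and last in all 579, so that the sets of regions differ. The 2 cytosines of 5578 CpGs read on both strands differed by a median of 6 points in each group. Cytosines outside CpGs averaged 1.72% in untreated and 1.81% in treated cells.

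A few regions did not behave so. In 26 regions the mean of the deposited region table and the mean of the deposited site table lay more than 10 points apart, whereas in the other 553 they lay within 9.97 points. These 26 had a treated median of 15.7% in the region table and 55% in the site table, 19 of them consisted of repeats over more than 50% of their bases, and 22 held more cytosines in the site table than the region table counts as CpGs. The 33 regions that were mostly repeats fell by a median of 24.0 points by the site table and the other 546 by 40.8 points. The 5 regions with the smallest falls were all of this kind. A repeat in an intron of Snx6, a sorting nexin gene, averaged 47.4% ± 34.5 (SD over 51 cytosines) in untreated and 54.5% ± 31.6 in treated cells, where the region table has 73.0% and 11.8%. The others were at the pseudogene Gm8810 and near Akirin2, Cdh7 and H2afb2, with site means that differed by between -1.97 and 1.97 points. One region lay on chromosome Y, although the untreated cells came from female mice; it was a repeat whose cytosines averaged 58.4% and 50.8%. With 10 X-linked regions it made up the 11 on sex chromosomes (1.90% of the 579, beside 1.00% of the other DMRs), and the other 568 were autosomal. The 10 were 33.3% of the 30 X-linked DMRs, and an effect of sex was not tested.

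**Figure D2:**
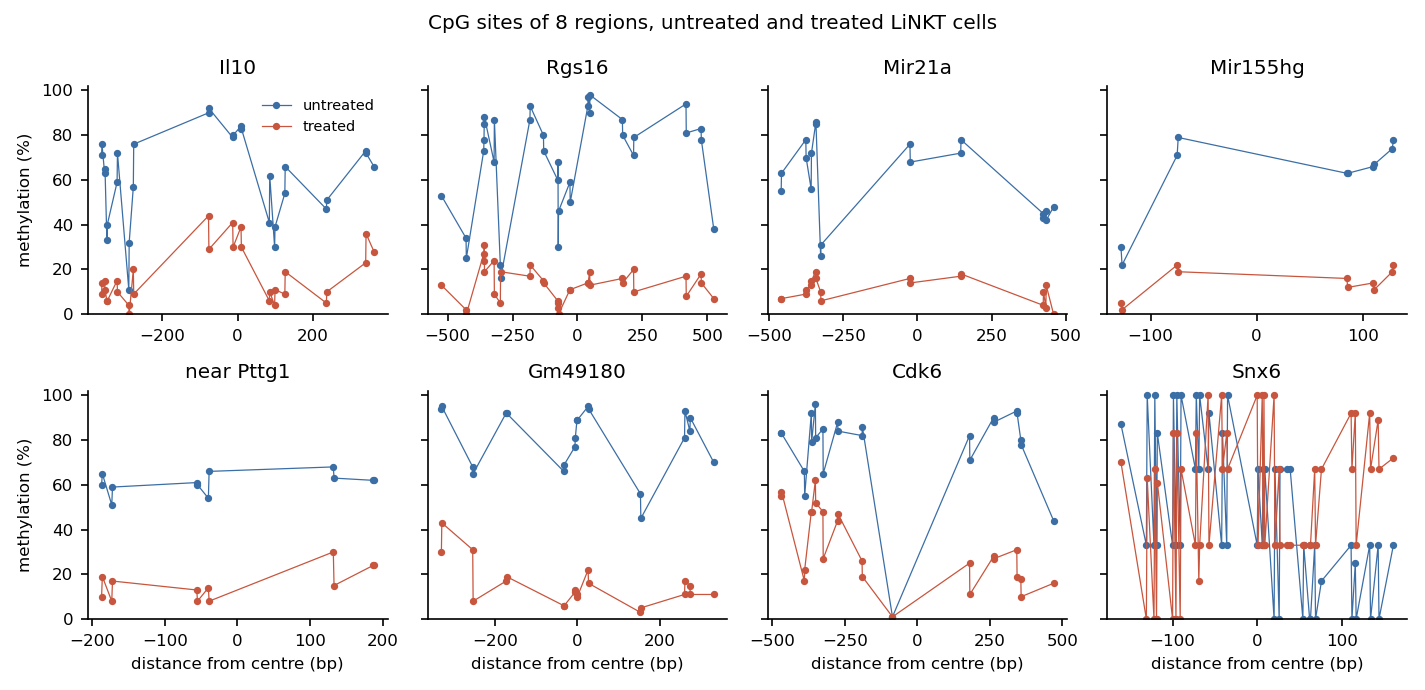
Methylation of each CpG cytosine (y axis, %) by distance from the region's centre (x axis, bp) in untreated and treated LiNKT cells, for 8 regions named by the gene they lie at. In the regions at Il10, Mir21a, Mir155hg and Gm49180 and near Pttg1 every cytosine is lower in treated cells, at Rgs16 and Cdk6 all but 1 are, and in the repeat in Snx6 24 of 51 are not.

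The deepest falls were seen at 10 regions that ended between 11.4% and 26.2%. A region in an intron of the non-coding gene Gm37004 had a site mean of 87.2% ± 14.4 (SD over 14 cytosines) in untreated and 14.9% ± 5.95 in treated cells, although its untreated mean in the region table was 72.6%. A region that overlaps an exon of Nvl, the gene of a ribosome biogenesis ATPase, went from 83.5% ± 9.0 to 11.4% ± 6.41 over 15 cytosines. At the start of Gm49180, a non-coding gene, 21 cytosines went from 80.2% ± 14.4 to 15.1% ± 9.74. The remaining 7 were at Rreb1, a zinc finger factor of Ras signalling, at Ikzf2, the gene of the Ikaros family factor Helios, at Samsn1, an adaptor that restrains lymphocyte activation, at Phactr2, at the non-coding genes D230022J07Rik and Gm14005, and 49502 bp from the start of Sspn. The Gm14005 region, with 110 cytosines over 3304 bp, was the longest of the 579 and went from 75.3% ± 15.4 to 15.8% ± 9.59.

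The evenness of the untreated level differed between regions. The most even was a region 2908 bp from the hairpin of Mir146, in which 12 cytosines averaged 60.9% ± 4.78 in untreated and 15.8% ± 7.23 in treated cells. Regions in introns of Gm48651, of Ezr, which links membrane proteins to actin, and of Dgkg, a diacylglycerol kinase, had untreated SDs of 5.42 to 5.74 points. The largest spread lay in regions near Cdh7, Tpbg and 3110018I06Rik and at Gm8810, with SDs of 36.6 to 40.4 points; 3 of these 4 were repeats over their whole length.

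The bounds of the rule cut through a continuum. Just above 50% lay regions at D430001F17Rik (50.1% in the region table), near Tlr1 (50.3%) and at Gm40608 (50.4%), and just below it regions at Vdr (49.9%), Mthfd1 (49.9%) and near Gm21748 (49.7%). Just below 80% lay regions at Cradd, Rin2 and Gm8810, at 79.989%, 79.961% and 79.96%, and just above it regions at Gm37564, Inpp4b and Pip4k2a, at 80.003%, 80.009% and 80.023%.

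Most regions lay inside genes and away from transcription start sites. A gene body of the GENCODE M21 annotation was overlapped by 406 of 579 regions (70.1%, 95% exact binomial interval 66.2 to 73.8%), beside 74.8% of all DMRs. Of these, 316 lay in introns alone and 90 overlapped an exon. A promoter, taken as 2 kb on either side of a start site, was overlapped by 87 regions (15.0%, interval 12.2 to 18.2%). The same share was 9.43% of the regions that fell from 80% or more (interval 7.82 to 11.2%), 28.2% of those that fell from below 50% and 14.4% of all DMRs. The median distance to the nearest start site was 11599 bp, against 15563 bp for the regions that fell from 80% or more. Of the 173 regions outside genes, 154 had a start site within 50 kb. These intervals treat regions as independent and cover counting error only, and 106 of the 579 regions had another falling DMR within 5 kb while 6 had a gaining one.

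The regions touched the bodies of 382 genes, of which 311 are protein-coding, and the promoters of fewer genes, of which 48 are protein-coding. In 42 genes there was more than 1 such region. Cdk6, a kinase that drives entry into the cell cycle, and the non-coding gene Gm14005 had 5 each, and Wwox, a large gene of a tumour suppressor, had 4. DMRs of any class in the body numbered 7 in Cdk6, 13 in Gm14005 and 22 in Wwox. The next 9 genes had 3, among them Bach2, a repressor that restrains effector differentiation, Etv6, an ETS family repressor, and Nfkb1, a subunit of NF-κB. In Cdk6 all 5 regions lay in introns. Their site means in untreated cells were 62.4%, 57.8%, 60.1%, 70.1% and 76.8% from first to last along the gene, and in treated cells 30.2%, 14.1%, 12.5%, 35.4% and 31.6%. All 5 fell, and the largest fall, of 47.6 points, was in the third.

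Among genes that define the T regulatory type 1 (TR1) program, 3 of 23 transcription factors listed held such regions: Maf, a factor that drives Il10 transcription, Prdm1, which encodes Blimp-1, and Nfatc1, a calcium-regulated factor. A DMR of any class was held by 16 of the 23. Of 15037 genes with at least 10 SmartSeq2 counts, 299 held one of the 579 regions in the body. The Il10 gene itself held 1. In the Il10 intron, 29 cytosines went from 60.8% ± 20.1 (SD between cytosines) to 17% ± 12.5. At Maf, 33 cytosines went from 53.9% ± 19.1 to 25.7% ± 9.76. The 2 Prdm1 regions went from 78.4% to 32.9% and from 75.2% to 37.0%, and the 2 Nfatc1 regions from 77.3% to 25.8% and from 75.3% to 28.8%. The treated level was thus lowest at Il10 and highest at Prdm1. The lists were set with earlier results of these data known, and the TR1 genes were named in the study of these samples, so that membership is no independent evidence.

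Of 40 transcription factors of iNKT and T cells, 24 held a DMR of any class and 13 held 16 of the 579 regions. The 13 were the Ikaros family genes Ikzf1, Ikzf2 and Ikzf3, the signal transducers Stat4 and Stat5b, the forkhead genes Foxo1 and Foxp1, the exhaustion-linked factor Tox, the tissue residency factor Zfp683 (Hobit), and Bach2, Ets1, Gfi1 and Runx2. By the site table, the lowest treated mean of all 579 regions was at Stat4, where 20 cytosines went from 66.2% ± 24.0 to 10.7% ± 7.56. At Ikzf3 56 cytosines went from 55.3% ± 12.9 to 12% ± 9.73, and at Ikzf2 12 cytosines from 79% ± 11.0 to 16% ± 8.19. The smallest fall among these factors was at Zfp683, from 61.5% ± 20.6 to 43.8% ± 20.9 over 60 cytosines. Stat4 and Zfp683 thus ended far apart although both began between 60% and 70%.

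Among 33 genes of T cell receptor signalling, 20 held a DMR of any class. The regions described here numbered 9 at 5 of these genes: Cd247, the ζ chain of the receptor, the kinases Fyn and Zap70, Nfkb1, and Rgs16, which dampens signals of chemokine receptors. The 2 Rgs16 regions lay 892 and 2202 bp from the start site and went from 68.9% ± 23.6 to 13.6% ± 7.58 and from 64.2% ± 34.2 to 17.1% ± 10.7. The 3 regions of Nfkb1 differed: the one 2976 bp from the start went from 79.7% to 55.7%, the one at 29607 bp from 75.4% to 25.9% and the one at 96610 bp from 54.7% to 28.2%. Among listed genes of migration and adhesion, Alcam, Ccr9, Itga4, Itgav and Itgb1 held 1 region each. Itga4, the α4 subunit of an integrin that holds lymphocytes to endothelium, went from 67.5% ± 24.7 to 21.7% ± 11.3 over 21 cytosines.

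Inhibitory and costimulatory receptors held 3 regions, at Cd28, at Ctla4, which competes with Cd28 for its ligands, and at Izumo1r, the folate receptor of regulatory T cells. The Ctla4 region, 24247 bp from the start, went from 76.8% ± 11.7 to 32.8% ± 7.53 over 12 cytosines, and the Cd28 region from 67.3% ± 14.7 to 47.1% ± 15.7 over 42. Il2ra, the α chain of the interleukin 2 receptor, held 1 and Tgfbr3, a coreceptor of TGF-β, held 2. Of 28 cytotoxic and NK receptor genes, Crtam and the granzyme gene Gzmk held 1 each. One of 29 imprinted loci, Plagl1, had a region at its promoter, from 50.6% ± 18.5 to 25.1% ± 17.3 over 18 cytosines. No region touched a listed marker of iNKT and T cells, B cells, hepatocytes, macrophages, neutrophils or endothelium. DMRs of other classes lay at 7 of the 10 iNKT and T cell markers. They lay at 1 macrophage and 1 endothelial marker and at 0 of the B cell, hepatocyte and neutrophil markers.

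Regions near the genes of 3 microRNAs of lymphocyte activation were found after the values were seen. Their mature sequences, from RefSeq on GRCm38, are given with bases 2 to 8, the seed that pairs with target transcripts, in capitals.
mmu-miR-21a-5p: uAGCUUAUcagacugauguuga
mmu-miR-155-5p: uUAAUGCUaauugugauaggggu
mmu-miR-146a-5p: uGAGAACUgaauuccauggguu
The 3 seeds differ from one another. Regions lay 451 and 9312 bp from the Mir21a hairpin, with treated levels of 10.9% ± 5.42 and 19.8% ± 19.1 after 60% ± 18.1 and 61.6% ± 20.8 in untreated cells. The region in Mir155hg, the host transcript of Mir155, lay 9948 bp from that hairpin and went from 61.3% ± 19.5 to 14.2% ± 6.83 over 10 cytosines. With the region 2908 bp from Mir146, all 4 stood near 61% in untreated cells and below 20% in treated ones. The levels of the microRNAs were not measured in the files used here.

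The central 300 bases of the regions often held letters bound by AP-1, the Fos and Jun family of activation factors. On either strand, TGANTCA was present in 151 of 579 regions (26.1%, interval 22.5 to 29.9%). It was present in 35.7% of regions that fell from 80% or more (interval 32.9 to 38.5%), in 16.3% of those that fell from below 50%, in 5.06% of gaining regions and in 7.81% of 32851 promoters of the same length. GAAANNGAA, read by IRF factors, was present in 18.3%, 17%, 14.5% and 6.97% of these 4 classes of DMR in the same order and in 8.56% of promoters. TGGAAAA, read by NFAT, was present in 13.5%, 12.2%, 7.05% and 4.16%, and in 6.73% of promoters. The ETS letters AGGAAGT went the other way, with 7.77% of the 579 regions (interval 5.73 to 10.3%) and 17% of gaining regions.

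**Figure D3:**
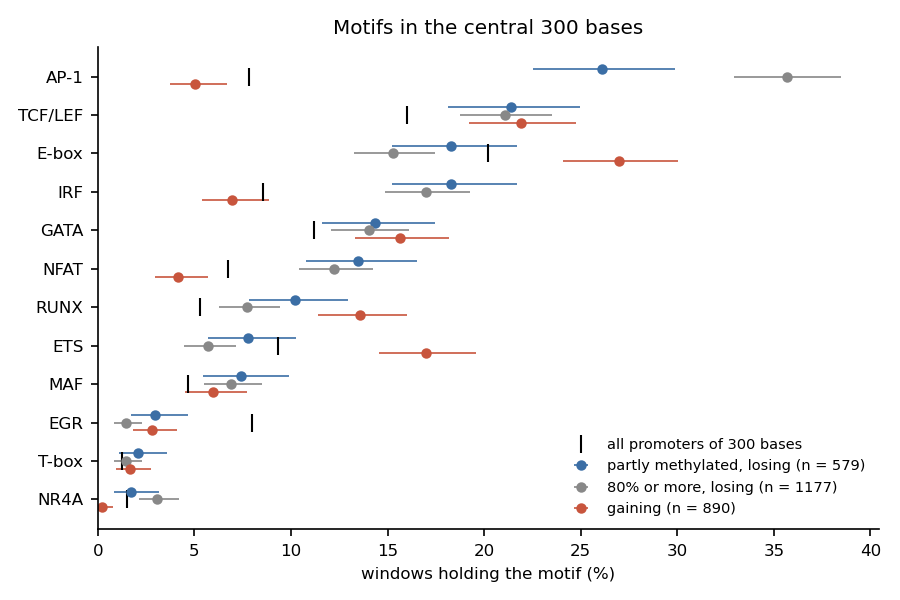
Share of central windows of 300 bases that hold each of 12 motifs on either strand (x axis, %) for the 579 partly methylated falling regions, the 1177 regions that fell from 80% or more and the 890 gaining regions, with 95% exact binomial intervals, and for all promoters (vertical ticks). AP-1 is the most frequent motif in both falling classes and is below 10% in gaining regions and promoters.

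The other 8 motifs were searched on both strands in the same way. The letters TCAAAG, read by the TCF and LEF factors of T cell development, were present in 21.4% of the regions, 21.9% of the other DMRs and 16% of promoters. The E-box CAGGTG, read by E proteins and their partners, was present in 18.3% of the regions, 20.1% of the other DMRs and 20.2% of promoters. For AGATAA, read by GATA factors such as Gata3 of T helper cells, the shares were 14.3% of the regions, 15.0% of the other DMRs and 11.2% of promoters. RUNX factors, which act throughout T cell development, read TGTGGTT, with 10.2% of the regions, 13.6% of gaining regions and 5.27% of promoters. MAF factors read TGCTGAC, with 7.43% of the regions, 6.45% of the other DMRs and 4.67% of promoters. The EGR letters GTGGGCG, of factors induced by T cell receptor signals, were present in 2.94% of the regions and 7.97% of promoters, and those of T-box factors and of NR4A receptors, searched as AGGTGTGA and AAAGGTCA, in 2.07% and 1.73% of the regions and 1.28% and 1.51% of promoters. At least 1 of the 12 was present in 78.8%. MAF and AP-1 letters can overlap, and short motifs are met often by composition alone. The regions had a median GC content of 46.5% and 0.363 of the CpGs expected from it, against 45.3% and 0.391 in the regions that fell from 80% or more. A match is a description of letters and not of a bound factor.

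Accessibility was read from the chromatin fragments of the multiome, whose barcodes end in 1 or 2 according to the library; the labels do not say which ending belongs to which group, and none was assigned. The endings had 8565 and 7237 barcodes with at least 1000 fragments, 162817764 and 149740716 insertions (fragment ends, 2 per fragment), and 100 barcode sequences in common. Barcodes were kept by this minimum alone, and doublets were not called or removed here. Values are insertions per 1000000 of the ending (IPM), and ratios were taken after adding 1 IPM, which understates the ratio of regions with few insertions. Differences between endings compare these libraries and not the conditions.

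The regions were more accessible in ending 2 almost throughout. The median log2 ratio of ending 2 to ending 1 was 0.95 (interval of the median 0.87 to 1.04), and 547 of 579 regions (94.5%) were higher in ending 2, as were 93.7% of the regions that fell from 80% or more and 67.6% of all DMRs. At least 2-fold higher in ending 2 were 281 regions (48.5%), where the share over all 2873 DMRs is 22.6%, and at least 2-fold higher in ending 1 were 0, where the share over all DMRs is 3.65%. The share at least 2-fold higher in ending 2 was 28.3% of the regions that fell from 80% or more, which hold fewer insertions, and the gap between these classes turned on the amount added: with 0.1 IPM the shares were 70.6% and 65.7%, beside 43.2% of all DMRs. Of the gaining regions, 11.8% were at least 2-fold higher in ending 1, and 30.7% with 0.1 IPM added. The insertion counts did not use the methylation values, but the classes compared were defined by them.

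In ending 2 the regions formed a peak over their surroundings. In ending 1 a much weaker one showed in medians over regions and not in the mean. Insertions per kb in the region were a median of 5.80 times those 5 to 10 kb away in ending 2 and 1.64 times in ending 1. With both endings together, 392 regions (67.7%) had at least 2-fold more insertions than their flanks, where the share over all DMRs is 57.7%. In the 100 bp bins beside the centre, the mean over regions was 8.15 and 8.05 IPM per kb in ending 2 and 2.03 and 2.05 in ending 1. The mean of ending 1 was higher away from the centre, with 3.09 and 3.54 in the bins 1750 bp to either side. Its median over regions was 0.369 in both of those bins, against 1.04 and 1.11 beside the centre. The regions that fell from 80% or more reached 3.77 in ending 2. No insertion of either ending lay in 18 regions, and the 33 that were mostly repeats had a median of 0.027 times their flanks.

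**Figure D4:**
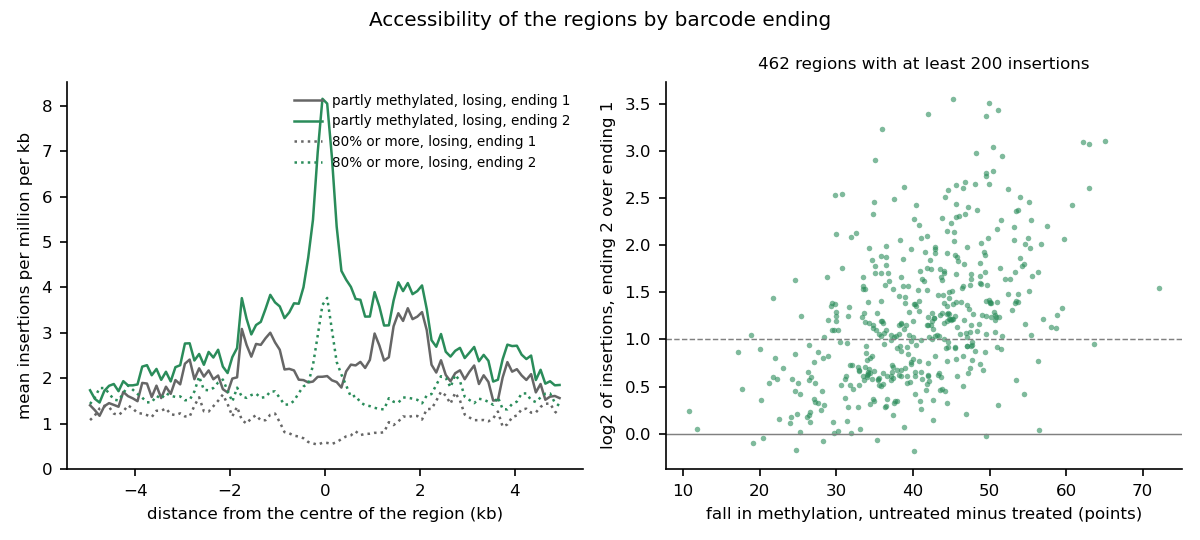
Left, mean insertions per 1000000 per kb (IPM per kb, y axis) by distance from the region's centre (x axis, kb) for barcode endings 1 and 2, in the 579 regions and in those that fell from 80% or more. Right, log2 ratio of ending 2 to ending 1 (y axis) against the fall in methylation in percentage points (x axis) for 462 regions with at least 200 insertions, with lines at equal values and at 2-fold; the central peak is in ending 2, and the ratio is higher where the fall is larger.

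Regions with larger falls in methylation had larger ratios. Split into 4 sets of 144 to 146 by the fall, 20.5%, 41.7%, 59.0% and 73.1% of regions were at least 2-fold higher in ending 2, from the smallest falls (median 28.0 points) to the largest (median 50.7 points), and with 0.1 IPM added 39.7%, 70.8%, 81.9% and 90.3%. Over the 462 regions with at least 200 insertions, Pearson's r was 0.47 and Spearman's rho 0.48, a description across regions that share the same libraries and are not independent replicates. Of the 87 regions at promoters, 29.9% were at least 2-fold higher in ending 2, and of the 492 elsewhere 51.8%, or 50.6% and 74.2% with 0.1 IPM added. The share was 60.9% in the 151 regions with AP-1 letters in their central window and 44.2% in the other 428, or 84.8% and 65.7% with 0.1 IPM added, and the median falls of these sets were 42.9 and 39.2 points.

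With 1 IPM added, the highest ratio was in the last of the 5 regions of Cdk6, the one whose first bases are printed above. It held 74 insertions of ending 1 and 2403 of ending 2, or 0.454 (exact Poisson interval 0.357 to 0.571) and 16 (15.4 to 16.7) IPM, an 11.7-fold ratio. This order depends on the amount added: with 0.1 IPM the log2 ratio of this region was 4.86 in place of 3.55 and it ranked 14 among the 462 regions with at least 200 insertions, behind Scfd2, which ranked 1 with 5.95. The other 4 Cdk6 regions had ratios between 0.37 and 1.66 on the log2 scale. Next came regions in introns of Scfd2, with 14 and 1707 insertions, and of Rbm20, an RNA-binding splicing regulator, with 58 and 2044, then regions near Med13l and Eea1, at D430001F17Rik and Gm49180, and near Sspn. Those at Gm49180 and near Sspn were also among the 10 deepest falls in methylation. Poisson intervals here cover counting error only.

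The lowest ratios were close to equal endings, in regions that ranged from below to well above their flanks in both. At Nin, a centrosomal gene, 257 insertions of ending 1 and 189 of ending 2 gave 1.58 (1.39 to 1.78) and 1.26 (1.09 to 1.46) IPM, in a region 17.5 and 19.4 times its flanks. The region at Maf had 367 and 311 insertions and stood at 0.313 and 0.283 times its flanks, while its methylation fell from 53.9% to 25.7%. The others were near Setbp1 and at H2-Q7, Zfp280b, Pla2g16, Ttc39b and Clint1.

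Among the 48 regions at listed genes, 23 (47.9%) were at least 2-fold higher in ending 2, about the share of the 579 regions as a whole, where all DMRs have 22.6%. At Il10, ending 1 had 267 and ending 2 had 1072 insertions, 1.64 and 7.16 IPM, and at Ikzf2 they had 199 and 2656, 1.22 and 17.7 IPM. The Tox regions had 13 and 727 insertions, and 39 and 348. In contrast, the regions at Itgb1 (177 and 178) and Gfi1 (91 and 80) had nearly equal counts, as did that at Mir155hg (93 and 82), a gene in none of the lists. Their methylation fell by 38.8, 41.4 and 47.1 points in that order. At Stat4 ending 1 had 442 and ending 2 had 1630.

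Expression of the genes that hold these regions was read from SmartSeq2 counts summed over 273 untreated and 251 treated cells. The sums held 172559865 and 149084200 counts, each gene was expressed as counts per 1000000 (CPM), and ratios of treated to untreated were taken after adding 1 CPM, which understates the change of low genes. Each group is 1 sample, and reads were counted without molecular identifiers. Treated cells also held RNA of other cell types: the 8 macrophage markers summed to 0.017 CPM in the untreated group and 1995 CPM in the treated one, 5 and 1 of them being at 0, the 7 hepatocyte markers in the table to 0 and 158 CPM, with all 7 at 0 in untreated cells, and 12 of 251 treated cells against 0 of 273 untreated had reads on at least 2 markers of one of the 2 lists. Without these 12 cells 89 in place of 90 genes with a region in the body were at least 2-fold higher, and Itga4, Maf, Cst7 and Srgn had log2 ratios of 3.39, 2.13, 1.59 and 1.30.

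Genes with a region in their body were higher in treated cells more often than lower. Of 381 such genes in the table, 299 had at least 10 counts, and 69 had none. The log2 ratio had a median of 0.25 (interval 0.08 to 0.40), where the median of 15037 genes was 0.02. Without the 12 cells, the median was 0.29 for genes with a region in the body and 0.0033 for all genes. With these cells kept, 90 genes with a region in the body were at least 2-fold higher (30.1%, against 20.1% of all genes). At least 2-fold lower were 49 (16.4%, against 17.2% of all genes). By the mean over cells of log2(CPM + 1), a difference of 1 or more was met by 8 of these genes upward and 1 downward, and by 47 and 60 of all 15037 genes. Genes with a region that fell from 80% or more in the body had, by summed counts, 29.6% higher and 17.2% lower. Among the 299, 30 had no counts in untreated cells and 8 had none in treated cells, and with these at the bound that 3 counts give, the median stayed at 0.25. The same counts were not taken over all 15037 genes, so that 30 and 8 are no result about genes with a region. Some of the 30, such as Crtam and Zbtb32, were read in 1 treated cell.

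Genes with a region at the promoter were few. Of those in the table, 58 had at least 10 counts and 37 had none, and the 58 had a median log2 ratio of 0.34 (interval 0.15 to 0.70). At least 2-fold higher were 17 (29.3%, beside 20.1% of all genes) and at least 2-fold lower 10 (17.2%, beside 17.2%). Of 150 genes that held a region at least 2-fold higher in ending 2, 35.3% were at least 2-fold higher in treated cells, and of 165 genes whose regions all stayed below that ratio, 24.2%. The shares of genes at least 2-fold lower were 16.7% and 16.4%. In 4 like-sized sets by the largest fall in a gene, 24.1%, 26.9%, 35.4% and 31.6% were at least 2-fold higher.

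**Figure D5:**
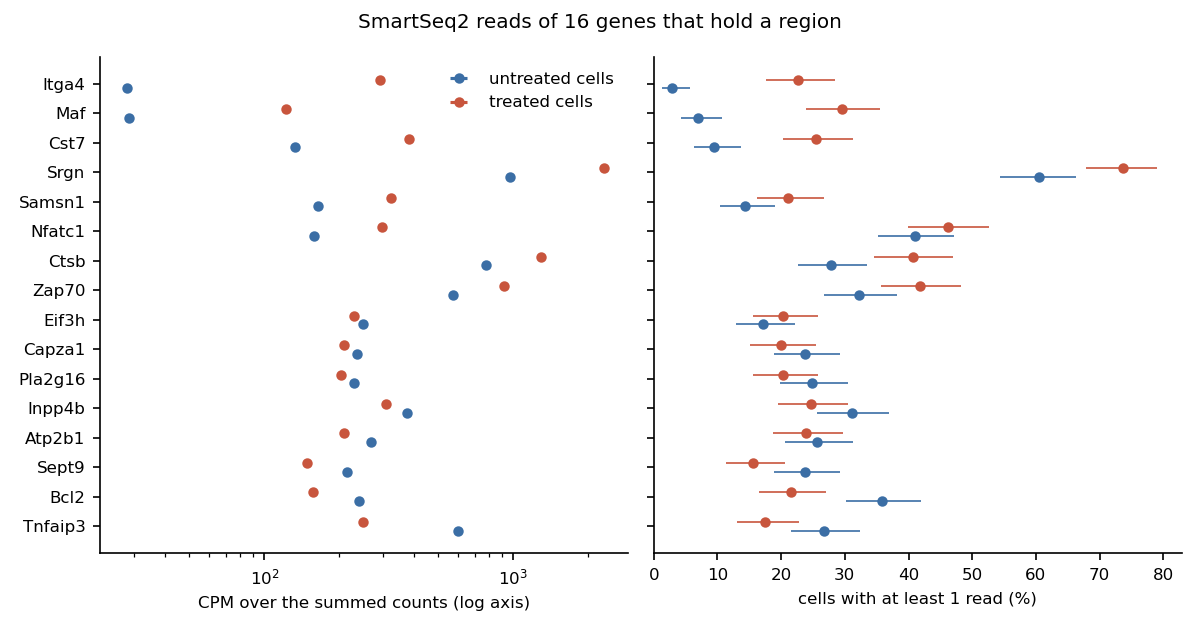
CPM over the summed counts (left, log axis) and share of cells with at least 1 read (right, %) in untreated and treated LiNKT cells for the 16 genes named by rule, with exact 95% Poisson and binomial intervals. The Poisson intervals take reads as independent, although reads were counted without molecular identifiers, and leave out the spread between cells. Neither kind of interval covers the spread between mice. Itga4 and Maf show the widest gaps upward, and Tnfaip3 and Bcl2 the widest gaps downward.

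Of the genes with a region, 31 passed 500 summed counts and were read in 20% or more of the cells in either group, and by summed counts Itga4 had the highest ratio of treated to untreated among them. It went from 28.1 to 292 CPM, a log2 ratio of 3.33, with reads in 2.93% and 22.7% of cells. Maf went from 28.6 to 123 CPM and from 6.96% to 29.5% of cells, and Cst7, whose cystatin F inhibits the proteases that activate granzymes, from 132 to 381 CPM and from 9.52% to 25.5% of cells. Srgn, the proteoglycan core of cytotoxic granules, went from 970 to 2311 CPM, with reads in 60.4% and 73.7% of cells. In the plot of CPM and shares these 4 genes are higher in treated cells by both measures. The intervals of CPM take reads as independent and leave out the spread between cells, and neither kind covers the spread between mice. Itga4, Maf and Cst7 met the limit of 20% of cells through treated cells alone, so that their higher share there follows from that limit. Samsn1, Nfatc1, the cathepsin gene Ctsb and Zap70 had log2 ratios between 0.69 and 0.96. Samsn1, read in 14.3% of untreated and 21.1% of treated cells, also met the limit of 20% through treated cells alone. The order depended on the measure: by the mean over cells of log2(CPM + 1) the differences were 1.70 for Srgn, 1.64 for Itga4, 1.60 for Cst7, 1.37 for Maf, 1.36 for Ctsb and 1.21 for Zap70.

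By summed counts, Tnfaip3 alone of these 31 genes was at least 2-fold lower, while by the mean over cells the differences were -0.99 for Tnfaip3 and -1.16 for Bcl2. Tnfaip3, which encodes the NF-κB inhibitor A20, went from 601 to 250 CPM, a log2 ratio of -1.26, with reads in 26.7% and 17.5% of cells, while its region fell from 70.4% to 26.8%. Tnfaip3 met the limit of 20% of cells through untreated cells alone. Bcl2, the survival gene, had 239 and 157 CPM and reads in 35.9% and 21.5% of cells, while its region fell from 82.0% to 27.7%. The cytoskeletal gene Sept9, which held 3 regions, had 215 and 149 CPM. Atp2b1, Inpp4b, Pla2g16, Capza1 and Eif3h had log2 ratios between -0.36 and -0.12, and Eif3h turned to 0.21 by the mean over cells of log2(CPM + 1), with reads in 17.2% of untreated and 20.3% of treated cells. Sept9 (23.8% of untreated and 15.5% of treated cells) and Capza1 (23.8% and 19.9%) met the limit of 20% through untreated cells alone. Eif3h met it through treated cells alone. A loss of methylation in the gene thus stood beside lower as well as higher RNA.

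Of 36 listed genes that held a region and had at least 10 counts, 16 (44.4%) were at least 2-fold higher in treated cells and 3 (8.33%) at least 2-fold lower, beside 20.1% and 17.2% of all genes. Among the higher ones, Alcam, Crtam, Ctla4, Il10 and Tgfbr3 passed the count limit through treated cells alone, Crtam through 1 cell. Ccr9, among the lower ones, passed it through untreated cells alone. Of the 257 listed genes tested that are not markers of other cell types, with or without a region, 31.1% were higher and 14.4% lower. Il10 had 0 counts in untreated cells, where 3 counts would give 0.0174 CPM, and 383 CPM in the treated group. The treated value came from 57046 counts in 32 cells, so that 1 cell can give far more than 3 counts. The value at 3 counts is thus no bound for a cell that was missed. Il10 had reads in 0 of 273 untreated cells and in 12.7% of treated cells. For counting error alone, a bound of 3 cells in place of 0 allows a share of up to 1.10% of untreated cells with a read. This bound is not an exact binomial interval. Izumo1r went from 17.5 to 416 CPM and from 1.47% to 16.7% of cells, and Ctla4 from 0 to 4.62 CPM and from 0% to 6.37% of cells. Rgs16 went from 1.69 to 24.7 CPM, with reads in 0.366% and 3.98% of cells. These cytokine, receptor and signalling genes had more RNA in treated cells in the sums, with few cells behind the last of them.

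Of 13 iNKT and T cell transcription factors with a region, 5 were at least 2-fold higher in treated cells and 0 at least 2-fold lower. Of the 38 tested factors in that list, with or without a region, 9 were higher and 6 lower by that measure. Ikzf3 went from 88.1 to 251 CPM and from 10.3% to 19.9% of cells, and Tox from 9.91 to 43.6 CPM and from 2.93% to 8.37% of cells. Stat5b went from 10.4 to 52.8 CPM and from 2.56% to 5.18% of cells. Runx2 and Bach2 were also at least 2-fold higher, each with reads in 1.47% of untreated and 3.19% of treated cells. Few cells stand behind the sums of Stat5b, Runx2 and Bach2. Stat4 had 190 and 186 CPM, and Foxp1 85.5 and 85.2 CPM. Ikzf1 went from 227 to 142 CPM and Foxo1 from 28.3 to 18.7 CPM, each less than 2-fold lower. The 3 listed genes at least 2-fold lower were in other lists. Il2ra went from 95.6 to 32.1 CPM and from 18.7% to 5.98% of cells. Zbtb38, a reader of methylated DNA, went from 105 to 37.9 CPM. Ccr9, a gut-homing receptor, went from 22.3 to 0 CPM, with reads in 1.10% of untreated cells.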

How the data were processed

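Bisulfite reads were filtered for the authors, placed on the mm10 (GRCm38) genome by BSMAP and freed of duplicates and of reads with several positions. The deposited site table gives the methylated fraction of reads at each cytosine, without coverage, so that the depth behind a value is unknown; how replicates became 1 value per group is not given in the sources used here. The deposited region table, called with metilene, gives 2 mean fractions per region and a count of CpGs; its difference and q-value columns hold the authors' comparison and were not used. The deposited SmartSeq2 tables hold counts per gene and cell, made by the authors with STAR, and IDs were matched to the annotation without their version, and only cells with a sub-cluster in the study's cell list were summed (4056 to 1398716 counts per cell); rows without an annotated gene held up to 0.00454% of counts. The deposited multiome fragments (Cell Ranger ARC) give coordinates, a barcode and a count of read pairs; fragments, not read pairs, were counted. Regions with mean fractions of at least 0.5 and below 0.8 that fell were selected. Site means, overlaps with GENCODE M21, motifs on GRCm38, insertions and CPM were computed with Python 3.11.15, pandas 2.3.3, NumPy and SciPy, and the ratio script was tested on simulated data. Every comparison has 1 sample per group, so that no test was run; 95% intervals are exact binomial, exact Poisson or order-statistic intervals. Members and gene lists were chosen with earlier results of these data known. Genes and regions named are the 10 largest and 5 smallest falls, members at listed genes, the 8 largest rises and 8 largest falls of RNA among genes with at least 500 counts and reads in 20% of cells of a group, the 8 highest and 8 lowest ratios among regions with at least 200 insertions, 3 regions on each side of each bound, the 4 largest and 4 smallest spreads and the genes with most regions; others named were chosen after their values were seen. Alternatives changed the bounds, filters, priors, flanks, annotation and cells. Results for 1 listed gene are not reported here.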

Additional observations from a re-analysis of the deposited data

How the results depend on the processing

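The number of regions was between 388 and 644 under other bounds and 574 when the site means chose them, 535 of which were in common (92.4% of the 579 and 93.2% of the 574); with at least 20 CpGs it was 224. Counting protein-coding genes alone, 59.8% of regions overlapped a gene body and 7.94% a promoter; the promoter share was 6.91% with 2 kb upstream only, 7.43% with 1 kb on either side and 20.5% among regions with at least 20 CpGs. Taking the median over cytosines moved the medians to 74% and 27%. With limits of 10% and 90% the partly methylated share was 91.2%, and with at least 20 CpGs 60.6%. A prior of 0.1 IPM moved the median log2 ratio of the endings to 1.61 and the count at least 2-fold higher in ending 2 to 409; the direction was the same. The use of this prior for the other classes of DMR and for the sets by fall, and the listed genes without markers of other cell types, were chosen after seeing the data. For expression, no filter gave medians of 0.00 in the body and at the promoter, since most added genes have no counts, and the mean over cells of log2(CPM + 1) gave 0.0359 and 0.0887 (the cause was not tested). By that mean, 8 genes with a region in the body were at least 1 log2 unit higher and 1 lower, and 4 and 0 of those with a region at the promoter; under the other alternatives these counts stayed within 1.5 times. Over whole regions, 87.9% held a motif. Leaving out the 26 regions whose tables lay apart, the 12 cells with macrophage or hepatocyte markers, or the sex chromosomes for accessibility, alternatives chosen after seeing the data, left each of the values computed within its limit: 1 SD or interval, or 1.5 times for a count. No paired analysis was possible because each kind of data used has 1 sample per group. Depth is unknown for methylation.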
